A study of Mus musculus with 8 samples.

Results

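The p53 target genes described here were 38 named genes of the 32285 features counted in pancreatic T cells of NOD mice, which become diabetic through autoimmunity. They were chosen by symbol, all 38 were found in the count tables, and their raw transcript counts were summed over the cells of each library, gene by gene. The study treated newly diabetic female mice daily with a pair of drugs labelled PPCA: 50 mg/kg nutlin-3, an MDM2 inhibitor described as a p53 potentiator, and 25 mg/kg MK-1775, a WEE1 inhibitor described as a cell cycle disruptor. Control mice received the vehicle of 30% ethanol, 5% Tween 20 and 65% PEG300. Blood glucose in these arms was 200 to 300 mg/dl. The age is given as 3 to 5 months for these arms in the treatment description and as 3 to 4 months for all 8 libraries in the sample labels. Pancreata were taken on days 2, 3 and 4, which gave 1 PPCA and 1 vehicle library a day. An onset library (250 mg/dl) and an active diabetes library (over 600 mg/dl) were harvested on day 1 without treatment. No group received 1 drug alone, so the effects of nutlin-3 and MK-1775 cannot be told apart.

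Each library was a droplet library of sorted CD45+CD3+TCRβ+ cells that had been frozen and were processed together. The labels do not say how many mice a library pooled or came from, so p-values measure the spread between libraries. After filtering, 6140 to 11510 T cells a library remained of 6201 to 11597 cells kept, with 33236319 to 57314395 unique transcript counts (UMIs). CD4-gated cells (a Cd4 UMI and none of Cd8a or Cd8b1) numbered 2647 to 4753 a library, and CD8-gated cells (the reverse) 1619 to 4461. No pair of libraries shared more than 41 cell barcodes. The labels give female mice throughout, but Xist, expressed from the inactive X chromosome, was at 450 to 612 CPM only in the active, onset, PPCA day 2 and vehicle day 4 libraries. The other 4 libraries held Xist below 0.9 CPM and Ddx3y, a Y-linked gene, at 70.3 to 93.8 CPM. The PPCA and vehicle libraries of days 2 and 4 therefore differed in these transcripts in opposite senses, while both libraries of day 3 were Y-positive.

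The transcription factor p53 is held low in unstressed cells by MDM2, a ubiquitin ligase that binds p53 and marks it for degradation, and that is itself a p53 target. Nutlin-3 fills the pocket of MDM2 that p53 occupies, so p53 is freed to act on its targets. These include the cell cycle inhibitor p21, mitochondrial death proteins, repair enzymes and metabolic regulators. In thymus and peripheral lymphocytes p53 is best known for driving death after DNA damage. WEE1 keeps cyclin-dependent kinases inactive until DNA is ready for mitosis.

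RefSeq windows of 300 bases (250 before to 50 after an annotated start, GRCm38.p6) were given for 29 of the 38 members. The p53 decamer consensus, a 10-base sequence equal in form on both strands, occurred exactly in windows of 12 of these 29 members (41.4%), against 9.55% of 27025 genes. The 12 were Aen, Bax, Ccng1, Cdkn1a, Ckap2, Ei24, Mdm2, Polk, Ppm1d, Rps27l, Sesn1 and Trp53. A pair of exact decamers 0 to 13 bases apart occurred in Cdkn1a alone among members and in 0.074% of all genes. A pair with 1 exact decamer and 1 that was off by at most 1 outer base occurred in Cdkn1a and Rps27l, and in 0.47% of all genes. Windows are printed for Phlda3, for Cdkn1a and for Rps27l, Bax, Ccng1, Apaf1 and Ei24, which passed the test for a higher level in cells with a Phlda3 UMI and were higher in 8 of 8 libraries, as described further on. Dcxr, Psrc1 and Ckap2, which did the same on few UMIs, are left out, as is Sesn2, which was higher in 8 of 8 libraries on 21 UMIs but did not pass (adjusted p = 0.113). The choice was made with these values known. The windows follow, 5′ to 3′, with exact decamers in capitals, together with the partner that is off by 1 outer base in the pairs of Cdkn1a and Rps27l: Cdkn1a at chr17:29090729-29091028 (plus strand), Rps27l at chr9:66946163-66946462 (plus strand), Bax at chr7:45466849-45467148 (minus strand), Ccng1 at chr11:40755237-40755536 (minus strand), Apaf1 at chr10:91082694-91082993 (minus strand), Ei24 at chr9:36797285-36797584 (minus strand) and Phlda3 at chr1:135765835-135766134 (plus strand).
Cdkn1a: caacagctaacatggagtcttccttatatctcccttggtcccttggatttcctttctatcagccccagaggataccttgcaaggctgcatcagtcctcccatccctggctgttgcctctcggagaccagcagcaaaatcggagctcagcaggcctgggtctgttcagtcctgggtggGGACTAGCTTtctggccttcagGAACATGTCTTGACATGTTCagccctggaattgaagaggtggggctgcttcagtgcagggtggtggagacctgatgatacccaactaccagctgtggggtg
Rps27l: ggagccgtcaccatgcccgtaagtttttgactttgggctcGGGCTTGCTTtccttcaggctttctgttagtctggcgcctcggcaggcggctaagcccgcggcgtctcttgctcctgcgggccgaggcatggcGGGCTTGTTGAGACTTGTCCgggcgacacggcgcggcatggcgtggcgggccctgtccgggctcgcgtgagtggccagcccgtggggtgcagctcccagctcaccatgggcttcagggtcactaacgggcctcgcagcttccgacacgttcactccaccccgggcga
Bax: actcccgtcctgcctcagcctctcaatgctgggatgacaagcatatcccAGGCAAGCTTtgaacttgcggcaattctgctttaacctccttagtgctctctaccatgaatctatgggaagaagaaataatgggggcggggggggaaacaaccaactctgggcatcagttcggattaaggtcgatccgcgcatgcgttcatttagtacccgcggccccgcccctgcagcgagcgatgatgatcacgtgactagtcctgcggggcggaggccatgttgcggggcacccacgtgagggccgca
Ccng1: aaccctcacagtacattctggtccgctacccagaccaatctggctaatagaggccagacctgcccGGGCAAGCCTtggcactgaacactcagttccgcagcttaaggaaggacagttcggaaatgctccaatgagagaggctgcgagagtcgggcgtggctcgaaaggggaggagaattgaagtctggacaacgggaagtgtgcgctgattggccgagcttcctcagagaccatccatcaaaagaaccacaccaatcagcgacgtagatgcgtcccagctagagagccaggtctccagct
Apaf1: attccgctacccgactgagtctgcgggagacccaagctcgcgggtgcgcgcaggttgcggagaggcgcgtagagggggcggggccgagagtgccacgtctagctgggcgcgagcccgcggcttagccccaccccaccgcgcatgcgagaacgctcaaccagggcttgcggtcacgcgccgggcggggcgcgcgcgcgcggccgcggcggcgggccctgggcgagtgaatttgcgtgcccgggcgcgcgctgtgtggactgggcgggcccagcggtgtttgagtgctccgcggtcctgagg
Ei24: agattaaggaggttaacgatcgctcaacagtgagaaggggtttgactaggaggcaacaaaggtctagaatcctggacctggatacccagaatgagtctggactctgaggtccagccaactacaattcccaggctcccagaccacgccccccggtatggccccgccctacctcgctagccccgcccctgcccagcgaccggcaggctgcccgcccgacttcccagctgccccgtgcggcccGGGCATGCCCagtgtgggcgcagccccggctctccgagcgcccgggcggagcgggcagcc
Phlda3: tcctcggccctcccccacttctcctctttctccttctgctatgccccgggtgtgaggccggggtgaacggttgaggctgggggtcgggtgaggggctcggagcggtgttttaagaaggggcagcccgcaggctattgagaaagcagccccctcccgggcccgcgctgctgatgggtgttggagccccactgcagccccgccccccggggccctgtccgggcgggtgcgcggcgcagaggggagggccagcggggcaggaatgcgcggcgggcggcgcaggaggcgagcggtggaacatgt
The Phlda3 and Apaf1 windows held no exact decamer, which says only that these letters are not in these windows. Cdkn1a and Rps27l each have another annotated start, whose window (chr17:29093519-29093818 and chr9:66945836-66946135) held 0 exact decamers. Bax carried AGGCAAGCTT and Ccng1 GGGCAAGCCT, each once. The motif TGACGTCA, searched on both strands, was in windows of Plk2 and Ppm1d (2.03% of all genes), and TGANTCA in windows of Ak1, Fas and Mdm4 (8.97% of all genes). A match is a description and not a site in use.

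None of the members passed the test between PPCA and vehicle. In the edgeR quasi-likelihood fit over 3 PPCA and 3 vehicle libraries with the day as a block, 0 of 35 tested members had an adjusted p below 0.05 in T cells, 0 of 33 in CD4-gated and 0 of 34 in CD8-gated cells. The background was 0% in T cells, 0% in CD4-gated cells and 0% in CD8-gated cells, of 13613, 11958 and 11966 genes tested. At an unadjusted p below 0.05 there were 5, 2 and 3 members, and 1065, 812 and 955 genes in all. DESeq2 also called 0 members, and 62, 34 and 40 genes in all. The median log2 fold change of the tested members was 0.06 in each gate, with 24 of 35, 21 of 33 and 21 of 34 above 0. Over all genes tested the median lay at -0.00067, 0.0022 and 0.0016. Sums over cells cannot tell a change in the share of cells that carry a transcript from a change in the amount per cell.

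**Figure D1:**
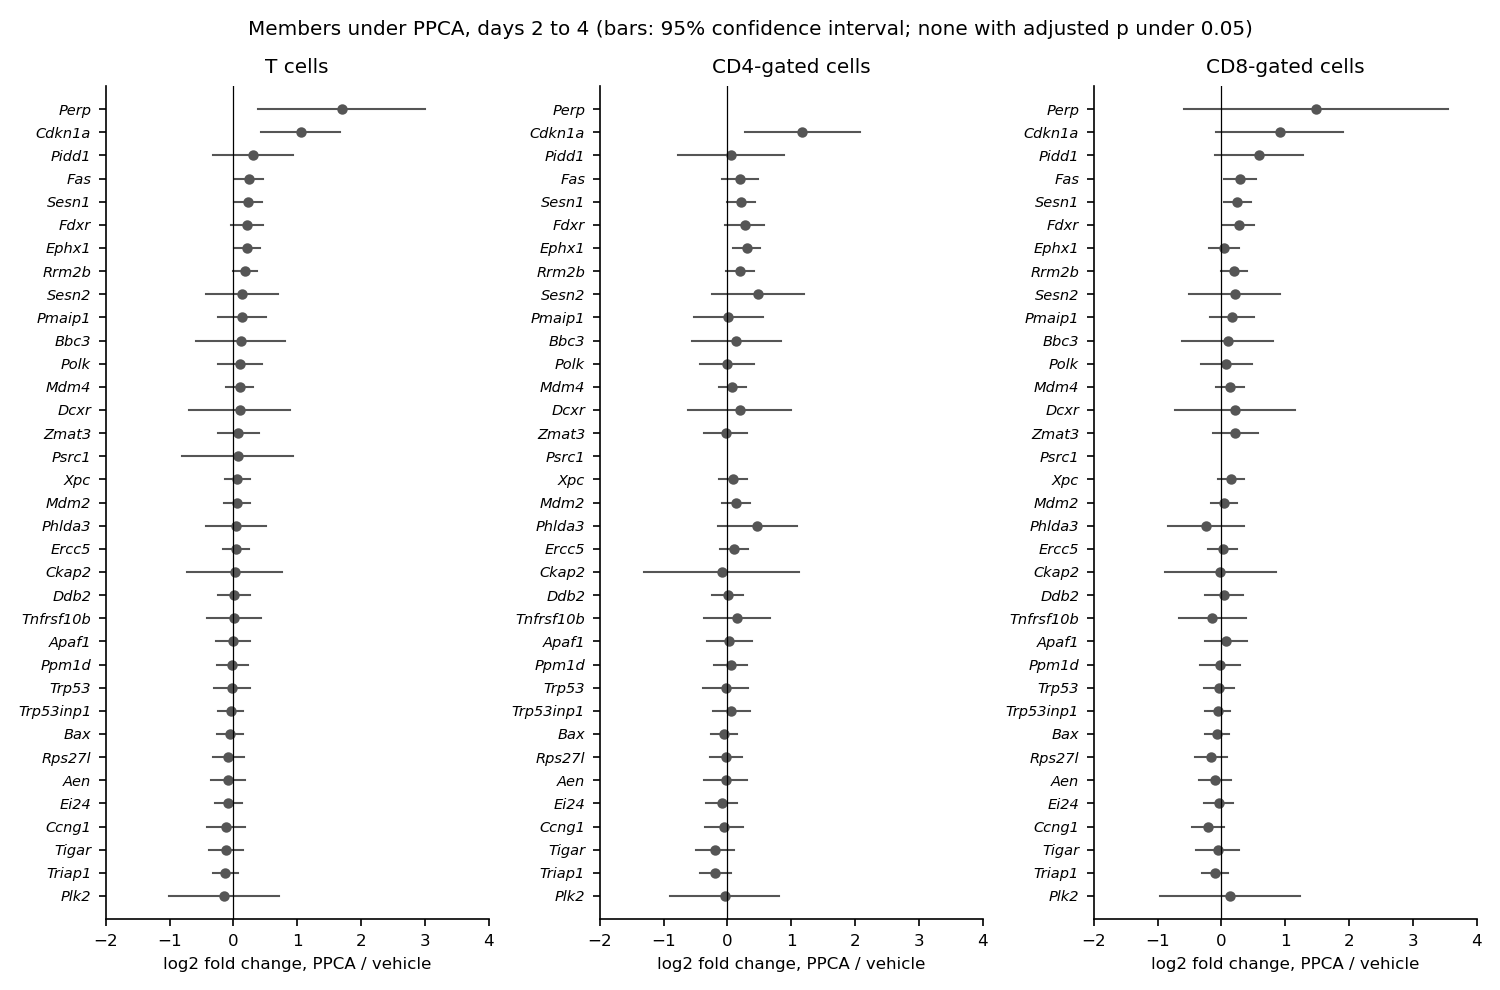
Log2 fold change of each tested member between 3 PPCA and 3 vehicle libraries (x axis) for T cells, CD4-gated and CD8-gated cells, with 95% confidence intervals. Members are ordered by their T cell value. Perp at 1.70 and Cdkn1a at 1.06 lie farthest to the right in T cells, and no member passes the adjusted threshold.

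Levels below are CPM after TMM scaling, the rate of a gene's UMIs among all UMIs of the library's T cells, and values for vehicle and PPCA are given in the order of days 2, 3 and 4. Cdkn1a encodes p21, which blocks cyclin-dependent kinases and is a classic readout of p53. Cdkn1a was at 0.505 CPM in the active and 1.61 CPM in the onset library, at 0.836, 0.624 and 4.21 CPM with vehicle and at 1.36, 0.903 and 12.9 CPM with PPCA. The 2 libraries of day 4 were the highest of all 8, and on each day PPCA lay above vehicle, by 1.63-fold, 1.45-fold and 3.07-fold. The arms overlapped, since vehicle on day 4 exceeded PPCA on days 2 and 3. The fitted log2 fold change was 1.06 (SE 0.26, adjusted p = 0.541), with a 95% interval of 0.44 to 1.68. In CD4-gated cells it was 1.17 (SE 0.38, adjusted p = 0.704) and in CD8-gated cells 0.92 (SE 0.43, adjusted p = 0.647). These values rest on 31 to 576 UMIs a library in T cells, 10 to 190 in CD4-gated and 4 to 178 in CD8-gated cells, and on day 3 PPCA lay below vehicle in both gates. Without the filter on low counts the adjusted p was 0.0406 in T cells and 0.0186 in CD4-gated cells, which passes. Without both day 4 libraries the log2 fold change was 0.63 and 0.42, with no call.

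**Figure D2:**
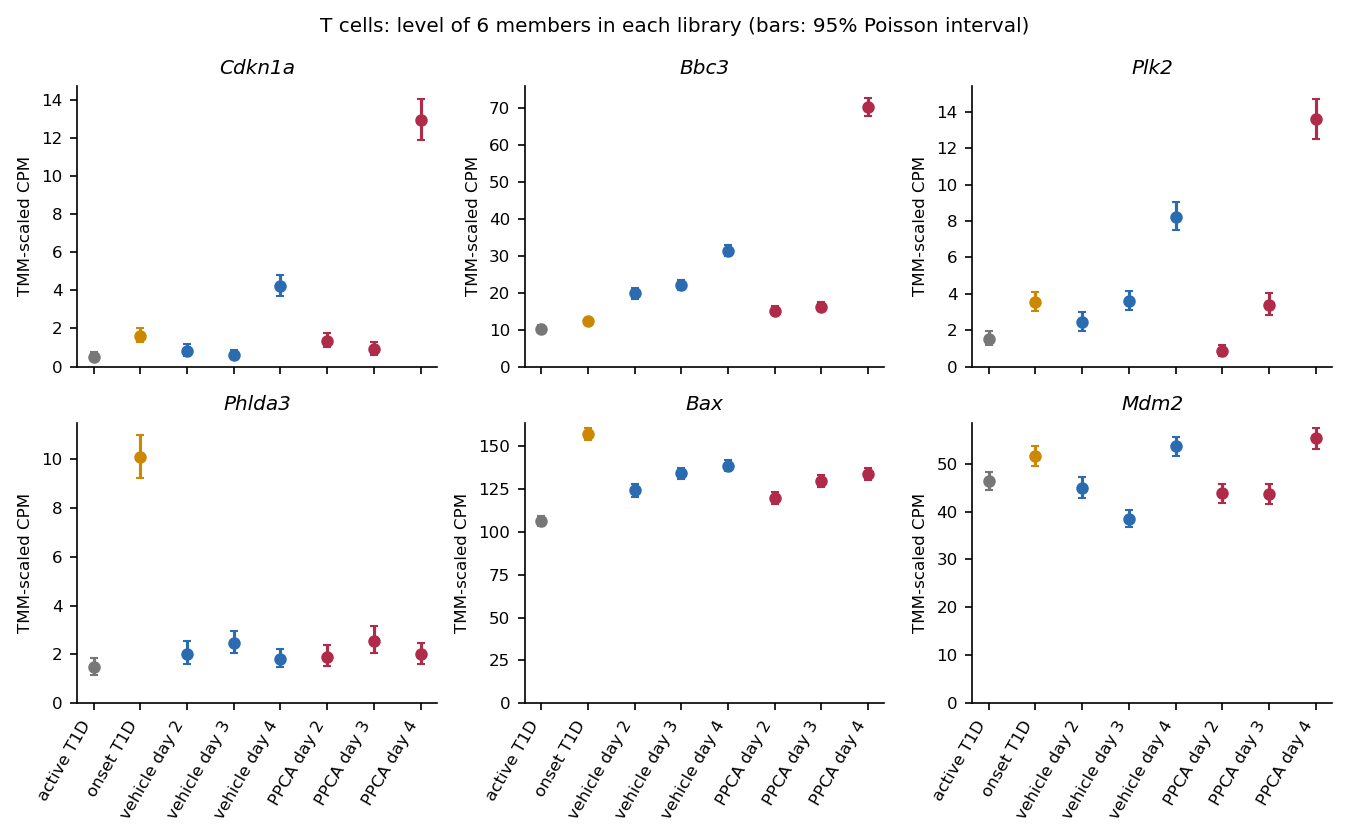
TMM-scaled CPM of Cdkn1a, Bbc3, Plk2, Phlda3, Bax and Mdm2 (y axis) in the T cells of each of the 8 libraries (x axis), with exact 95% Poisson intervals that cover counting error only. Cdkn1a, Bbc3 and Plk2 are highest in PPCA on day 4, Phlda3 and Bax in the onset library, and Mdm2 stays between 38.5 and 55.3 CPM.

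Among p53 and its feedback genes, none passed the test between PPCA and vehicle. For Trp53 the vehicle libraries gave 116, 127 and 114 CPM, the PPCA libraries 135, 132 and 91.6 CPM, the onset library 128 CPM and the active library 116 CPM. PPCA lay above vehicle on days 2 and 3 and was the lowest of all 8 libraries on day 4, so the arms overlapped. The log2 fold change of Trp53, which encodes p53 itself, was -0.02 (SE 0.12, adjusted p = 0.974). Mdm2 stood at 45.0, 38.5 and 53.6 CPM with vehicle, at 43.8, 43.6 and 55.3 CPM with PPCA, at 51.5 CPM at onset and at 46.3 CPM in active diabetes. The vehicle mean was 45.7 ± 7.56 CPM (SD, n = 3) and the PPCA mean 47.5 ± 6.70 CPM (SD, n = 3). The fitted value was 0.06 (SE 0.09, adjusted p = 0.889), with an interval of -0.15 to 0.26. Ccng1 was at 42.6 CPM in the active and 57.3 CPM in the onset library, at 38.2, 42.8 and 36.7 CPM with vehicle and at 42.6, 41.4 and 27.1 CPM with PPCA. Ccng1 encodes cyclin G1, which acts on MDM2 in a feedback loop, and its lowest level was in PPCA on day 4. Its log2 fold change was -0.11 (SE 0.13, adjusted p = 0.847). For Mdm4 the vehicle libraries gave 119.8, 106 and 117 CPM, the PPCA libraries 121, 123 and 125 CPM, the onset library 138 CPM and the active library 107 CPM. Mdm4, a relative of MDM2 that restrains p53, lay higher in every PPCA library than in any vehicle library, by small steps, at 0.10 (SE 0.09, adjusted p = 0.802). Ppm1d, a phosphatase that switches p53 signalling off, ranged from 16.9 to 23.7 CPM.

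The other cell cycle members were, like Cdkn1a, counted at low levels. Plk2 stood at 2.43, 3.60 and 8.24 CPM with vehicle, at 0.836, 3.39 and 13.6 CPM with PPCA, at 3.54 CPM at onset and at 1.54 CPM in active diabetes. Plk2 is a polo-like kinase of the centrosome cycle. It was higher under PPCA on day 4 and lower on day 2, at 0.344 times the vehicle level, and its log2 fold change was -0.15 (SE 0.36, adjusted p = 0.932). Psrc1 was at 0.190 CPM in the active and 0.925 CPM in the onset library, at 0.431, 0.282 and 0.624 CPM with vehicle and at 0.597, 0.328 and 0.471 CPM with PPCA. Psrc1, a spindle protein, was highest in the onset library, and its fitted value was 0.07 (SE 0.37, adjusted p = 0.971). For Ckap2 the vehicle libraries gave 0.728, 0.745 and 1.06 CPM, the PPCA libraries 0.573, 0.629 and 1.53 CPM, the onset library 0.885 CPM and the active library 0.842 CPM. Ckap2 is also a spindle protein.

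Death and survival members did not separate the arms either. Bax stood at 124, 134 and 138 CPM with vehicle, at 119.7, 129.7 and 134 CPM with PPCA, at 157 CPM at onset and at 107 CPM in active diabetes. Bax, which opens the outer mitochondrial membrane, was slightly lower under PPCA on all 3 days, and the log2 fold change was -0.05 (SE 0.08, adjusted p = 0.894), with an interval of -0.25 to 0.15. Bbc3 was at 10.2 CPM in the active and 12.3 CPM in the onset library, at 19.8, 22.1 and 31.4 CPM with vehicle and at 15.1, 16.2 and 70.3 CPM with PPCA. Bbc3 encodes PUMA, which frees Bax from its inhibitors. It was lower under PPCA on days 2 and 3 and 2.24-fold higher on day 4, with a fitted value of 0.12 (SE 0.30, adjusted p = 0.932). For Pmaip1 the vehicle libraries gave 3.94, 6.0 and 13 CPM, the PPCA libraries 5.40, 5.03 and 15.0 CPM, the onset library 8.99 CPM and the active library 6.07 CPM. Pmaip1 encodes NOXA, a related inhibitor of survival proteins, and its 2 highest libraries were those of day 4. Phlda3 stood at 2.02, 2.48 and 1.81 CPM with vehicle, at 1.91, 2.57 and 2.02 CPM with PPCA, at 10.1 CPM at onset and at 1.47 CPM in active diabetes. Phlda3, which competes with the kinase AKT for membrane lipids, was near 2 CPM in 7 libraries and 10.1 CPM in the onset library. Its arms overlapped, at 0.04 (SE 0.20, adjusted p = 0.965).

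Several death and survival members were lowest on day 4. Aen was at 18.1 CPM in the active and 20.1 CPM in the onset library, at 18.5, 17.9 and 14.5 CPM with vehicle and at 19.4, 17.6 and 12.0 CPM with PPCA. Aen is a nuclease induced in p53-driven death, and it was lowest in the 2 libraries of day 4. For Triap1 the vehicle libraries gave 33.1, 33.9 and 22.5 CPM, the PPCA libraries 29.0, 32.7 and 20.6 CPM, the onset library 31.6 CPM and the active library 31.1 CPM. Triap1, a mitochondrial lipid transfer partner that protects cells, was also lowest on day 4 and lower under PPCA on all 3 days. Trp53inp1 stood at 47.7, 49.9 and 42.9 CPM with vehicle, at 48.8, 44.7 and 42.9 CPM with PPCA, at 56.4 CPM at onset and at 54.1 CPM in active diabetes. Trp53inp1 promotes autophagy and death. Zmat3 was at 14.9 CPM in the active and 17.3 CPM in the onset library, at 12.3, 12.4 and 10.2 CPM with vehicle and at 14.6, 14.5 and 8.68 CPM with PPCA. Zmat3 binds RNA and shapes splicing, and it was highest in the onset library. For Pidd1 the vehicle libraries gave 1.35, 1.29 and 1.00 CPM, the PPCA libraries 1.29, 1.53 and 1.66 CPM, the onset library 1.25 CPM and the active library 1.87 CPM. Pidd1, a scaffold that activates a caspase, was counted near 1 CPM, so its ratios rest on few UMIs.

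Ei24 stood at 25.8, 28.1 and 24.5 CPM with vehicle, at 24.4, 24.5 and 25.1 CPM with PPCA, at 27.1 CPM at onset and at 27.6 CPM in active diabetes. Ei24 is a membrane protein of the endoplasmic reticulum with a role in autophagy. Fas was at 21.6 CPM in the active and 26.4 CPM in the onset library, at 21.9, 21.9 and 24.1 CPM with vehicle and at 27.1, 23.3 and 30.6 CPM with PPCA. Fas, the death receptor for Fas ligand on T cells, was higher under PPCA on all 3 days, at 0.24 (SE 0.09, adjusted p = 0.602). For Perp the vehicle libraries gave 0.189, 0.101 and 0.624 CPM, the PPCA libraries 0.310, 1.20 and 1.32 CPM, the onset library 0.382 CPM and the active library 0.316 CPM. Perp, a membrane protein of epithelial junctions that p53 induces in death, was near the limit of detection. The PPCA day 3 value held 44 UMIs, of which 40 came from 1 cell among 5, and its log2 fold change was 1.70 (SE 0.56, adjusted p = 0.602). Apaf1 stood at 11, 11.1 and 10.3 CPM with vehicle, at 11.7, 10.1 and 10.7 CPM with PPCA, at 13.9 CPM at onset and at 11 CPM in active diabetes. Apaf1, the core of the apoptosome, was highest in the onset library. Tnfrsf10b, the receptor for TRAIL, ranged from 2.35 to 4.08 CPM.

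Repair members differed little between the arms. Rrm2b was at 34.4 CPM in the active and 32.4 CPM in the onset library, at 33.8, 31.5 and 25.4 CPM with vehicle and at 37.4, 35.4 and 29.7 CPM with PPCA. Rrm2b supplies deoxynucleotides for repair as a subunit of ribonucleotide reductase. It was higher under PPCA on each day, by little, at 0.18 (SE 0.08, adjusted p = 0.647). For Ddb2 the vehicle libraries gave 19.7, 16.8 and 23.8 CPM, the PPCA libraries 17.4, 18.5 and 25.2 CPM, the onset library 18.4 CPM and the active library 18.3 CPM. Ddb2 recognises ultraviolet lesions and was highest on day 4 in both arms. Polk stood at 13.4, 9.88 and 9.14 CPM with vehicle, at 16.2, 12.3 and 7.63 CPM with PPCA, at 16.5 CPM at onset and at 11.8 CPM in active diabetes. Polk, a polymerase that copies past lesions, was lowest on day 4 in both arms. Xpc was at 32.3 CPM in the active and 33.8 CPM in the onset library, at 31.4, 28.2 and 29.8 CPM with vehicle and at 32.8, 31.4 and 29.5 CPM with PPCA. Xpc detects lesions for nucleotide excision repair, and Ercc5 cuts beside them. For Ercc5 the vehicle libraries gave 25.1, 26.2 and 25.8 CPM, the PPCA libraries 25.7, 28.6 and 25.1 CPM, the onset library 27.9 CPM and the active library 27.6 CPM. Both stayed within narrow ranges over the 8 libraries.

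Several metabolic members lay a little higher under PPCA on all 3 days, without passing the test. Sesn1 stood at 41.3, 36.5 and 43.9 CPM with vehicle, at 43.3, 46.6 and 53.3 CPM with PPCA, at 41.0 CPM at onset and at 44.6 CPM in active diabetes. Sesn1 encodes a sestrin, which restrains mTORC1, and lay above vehicle on all 3 days at 0.23 (SE 0.09, adjusted p = 0.616). Sesn2 was at 1.54 CPM in the active and 1.41 CPM in the onset library, at 1.29, 1.23 and 2.34 CPM with vehicle and at 1.07, 1.5 and 2.96 CPM with PPCA. Sesn2, its relative, was highest in the 2 libraries of day 4. For Fdxr the vehicle libraries gave 18.7, 21.3 and 16.4 CPM, the PPCA libraries 21.2, 22.1 and 21.8 CPM, the onset library 19.1 CPM and the active library 18.9 CPM. Fdxr passes electrons to mitochondrial ferredoxin and lay above vehicle on all 3 days at 0.21 (SE 0.11, adjusted p = 0.680). Ephx1 stood at 28.3, 26.0 and 30.1 CPM with vehicle, at 34.3, 31.4 and 32.1 CPM with PPCA, at 28.6 CPM at onset and at 27.8 CPM in active diabetes. Ephx1, a microsomal epoxide hydrolase, was above the highest vehicle library in all 3 PPCA libraries, at 0.21 (SE 0.09, adjusted p = 0.619).

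Tigar was at 15.4 CPM in the active and 15.0 CPM in the onset library, at 14.9, 13.2 and 8.94 CPM with vehicle and at 12.6, 13.3 and 8.30 CPM with PPCA. Tigar, a phosphatase that slows glycolysis, was lowest in the 2 libraries of day 4. For Dcxr the vehicle libraries gave 2.21, 2.72 and 1.47 CPM, the PPCA libraries 1.91, 1.81 and 3.14 CPM, the onset library 2.29 CPM and the active library 1.66 CPM. Dcxr is a carbonyl reductase with few counts. Rps27l stood at 97.7, 83.3 and 103 CPM with vehicle, at 92.7, 90.9 and 85.1 CPM with PPCA, at 109.5 CPM at onset and at 102 CPM in active diabetes. Rps27l, a ribosomal protein relative, was highest in the onset library. Ak1, Gdf15 and Gls2 (an adenylate kinase, a secreted stress factor and a glutaminase) were too low to test in T cells, at no more than 13 UMIs in any library.

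Members were also counted by whether PPCA lay on the same side of vehicle on all 3 days. Among 32 members with a mean of at least 1 CPM in T cells, 7 (21.9%) were higher under PPCA on each day, against a background of 15.9% of 11050 genes. They were Cdkn1a, Ephx1, Fas, Fdxr, Mdm4, Rrm2b and Sesn1. Bax and Triap1 (6.25%) were lower on each day, against 15.4%. In CD4-gated cells 11 of 32 (34.4%) were higher (background 14.2%) and 4 lower (background 14.7%). In CD8-gated cells 6 of 34 (17.6%) were higher (background 15.8%) and 6 lower (background 14.7%). Fdxr, Rrm2b and Sesn1 were higher, and Bax and Triap1 lower, on all 3 days in all 3 gates, which share cells. All 3 PPCA libraries lay above all 3 vehicle libraries for Ephx1 and Mdm4 in T cells (background 3.48%). The same held for Ephx1, Fdxr and Sesn1 in CD4-gated cells (background 3.48%), and for Pidd1 in CD8-gated cells (background 3.25%).

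The treatment effect in CD8-gated cells minus that in CD4-gated cells passed the test for 0 of 34 members, with edgeR and the library as a block (background 0.0241%, 3 genes). At an unadjusted p below 0.05 there were 3 members, and DESeq2 called 0 members and 1 gene. For Phlda3 the difference was -0.70 (SE 0.33, adjusted p = 0.928), and for Cdkn1a -0.42 (SE 0.33, adjusted p = 0.993). Phlda3 was higher under PPCA on each day in CD4-gated cells and lower on each day in CD8-gated cells. Its CD4-gated levels were 1.54, 2.28 and 1.67 CPM with vehicle and 2.27, 2.82 and 2.46 CPM with PPCA. Its CD8-gated levels were 2.49, 2.63 and 2.21 CPM with vehicle and 1.87, 2.45 and 1.89 CPM with PPCA. These levels rest on few cells with a Phlda3 UMI, 24 to 37 a library in CD4-gated and 24 to 44 in CD8-gated cells.

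No call was made among other genes of the pathway either. Of 20 p53 regulators (kinases, ubiquitin ligases, acetyltransferases and ribosomal proteins that bind MDM2) 18 were tested in T cells and 0 passed between PPCA and vehicle in the same fit. Of 25 other reported p53 targets 19 were tested and 0 passed. In CD4-gated and CD8-gated cells 0 of either list passed as well. At an unadjusted p below 0.05 in this edgeR fit there were 2 of 19 other targets in T cells and 0 of 18 in CD4-gated cells. In CD8-gated cells there were 6 of 18 (955 of 11966 genes in all), with a lowest adjusted p of 0.373. Regulators gave 1, 1 and 2 of 18 in the same order of gates.

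Day 4 held the highest levels of several members in both arms. On day 4 alone, with 1 library an arm and no test, 5 of 32 members (15.6%) were at least 1.5-fold higher under PPCA than vehicle (background 7.05%). These were Cdkn1a at 3.07-fold, Bbc3 at 2.24-fold, Dcxr at 2.13-fold, Pidd1 at 1.66-fold and Plk2 at 1.65-fold. None of the 32 was lower by that fold (background 2.62%). In PPCA on day 4, Bbc3, Cdkn1a and Plk2 were at least 1.5-fold above each of the other 7 libraries (background 2%). Mdm2 at 1.03-fold, Bax at 0.967-fold, Trp53 at 0.801-fold and Ccng1 at 0.738-fold were near or below the vehicle level. The 576 UMIs of Cdkn1a in that library came from 437 of 11510 T cells, and its interval of 11.9 to 14.0 CPM covers counting error only.

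Across both arms, 12 of 35 members differed between day 4 and days 2 and 3 in T cells (edgeR quasi-likelihood fit, arm as a block, 6 libraries). The 7 that rose (20% of members, background 9.82%) included 2 cell cycle members, Cdkn1a at 3.08 (SE 0.25, adjusted p = 8.78e-04) and Plk2 at 2.22 (SE 0.36, adjusted p = 0.00903). They also included the death genes Pmaip1 at 1.46 (SE 0.16, adjusted p = 0.00272) and Bbc3 at 1.44 (SE 0.30, adjusted p = 0.0207). Sesn2 rose by 1.05 (adjusted p = 0.0276), Ddb2 by 0.44 (adjusted p = 0.0364) and Mdm2 by 0.35 (adjusted p = 0.0403). The 5 that fell (14.3% of members, background 7.53%) were Tigar at -0.65 (adjusted p = 0.0152), Polk at -0.60 (adjusted p = 0.0447), Triap1 at -0.58 (adjusted p = 0.00802), Aen at -0.47 (adjusted p = 0.0406) and Rrm2b at -0.33 (adjusted p = 0.0403). Of the 14 members with death and survival roles, 2 rose and 2 fell. In all, 1337 genes rose and 1025 fell. With library totals in place of TMM, which shifts each day 4 value by -0.17, 893 rose and 2148 fell, with 5 members higher and 8 lower, and Mdm2 and Ddb2 did not pass.

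In CD4-gated cells 7 of 33 members differed on day 4. Cdkn1a, Plk2, Pmaip1, Bbc3 and Mdm2 rose (background 8.45%), by 3.15, 2.19, 1.82, 1.58 and 0.39 on the log2 scale, and Tigar and Triap1 fell (background 5.45%). In CD8-gated cells 7 of 34 differed. Cdkn1a, Plk2, Pmaip1 and Sesn1 rose (background 8.83%), by 3.68, 2.34, 1.16 and 0.42, and Zmat3, Trp53inp1 and Triap1 fell (background 6.87%). By library totals Mdm2 did not pass in CD4-gated cells nor Sesn1 in CD8-gated cells, and the split of all genes moved from 1010 higher and 652 lower to 632 and 1254 in CD4-gated cells, and from 1057 and 822 to 689 and 1832 in CD8-gated cells. Cdkn1a and Pmaip1 passed under every alternative run, in all 3 gates, while most other calls were lost when the day 2 or the day 3 pair was left out. Without the day 3 pair 2 members passed in T cells, with 202 genes higher and 59 lower in all. Without the day 2 pair 4 did, with 742 genes higher and 416 lower. Without the PPCA library of day 4 the rise of Cdkn1a was 2.55 in T cells, while that of Bbc3 was 0.60 (adjusted p = 0.0238).

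Early response genes moved with the same day. Of 10 such genes, which switch on within minutes of stimulation or tissue dissociation (Fos, Jun, Egr1 and others), 7 rose on day 4 in T cells, 6 in CD4-gated and 8 in CD8-gated cells. Their summed level was 1411 CPM in the active and 2364 CPM in the onset library, 1963, 2355 and 4557 CPM with vehicle and 848 (day 2), 1814 and 7029 CPM with PPCA. PPCA day 4 was the highest and vehicle day 4 the next for that sum, as for Cdkn1a and Plk2. Its part in the day 4 values was not tested. In CD4-gated cells the 7 tested of 12 pancreas enzyme and hormone genes fell on day 4. The summed level of the 12 was 95.9, 137 and 47.9 CPM with vehicle and 88.9, 256 and 74.7 CPM with PPCA, and Amy2a1 and Gcg were at 0 throughout. In CD8-gated cells the same 7 genes had values above 0, at a median of 1.27, with 5 at an unadjusted p below 0.05 and 0 called (lowest adjusted p = 0.0606). The sum of the 12 there was 15.7, 74.5 and 160.0 CPM with vehicle and 68.3, 48.3 and 96.9 CPM with PPCA, and the part of these genes was not tested. Each day held 1 harvest of an arm, so the day and its harvest cannot be told apart. Day 4 held 1 Xist-positive and 1 Y-positive library, and days 2 and 3 held 1 and 3. With a term for Xist 16 members passed in T cells (3533 of all genes, against 2362 without it), 14 in CD4-gated (2959 against 1662) and 17 in CD8-gated cells (3319 against 1879). Cd8a was lower on day 4 in T cells at -0.57 (adjusted p = 0.0233), while Cd8b1 at -0.33 and Cd4 at -0.19 did not pass. The CD4-gated and CD8-gated cells numbered 4547 and 2662 with vehicle on day 4 and 3020 and 4461 with PPCA on day 4. The part of this in the T cell values was not tested.

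**Figure D3:**
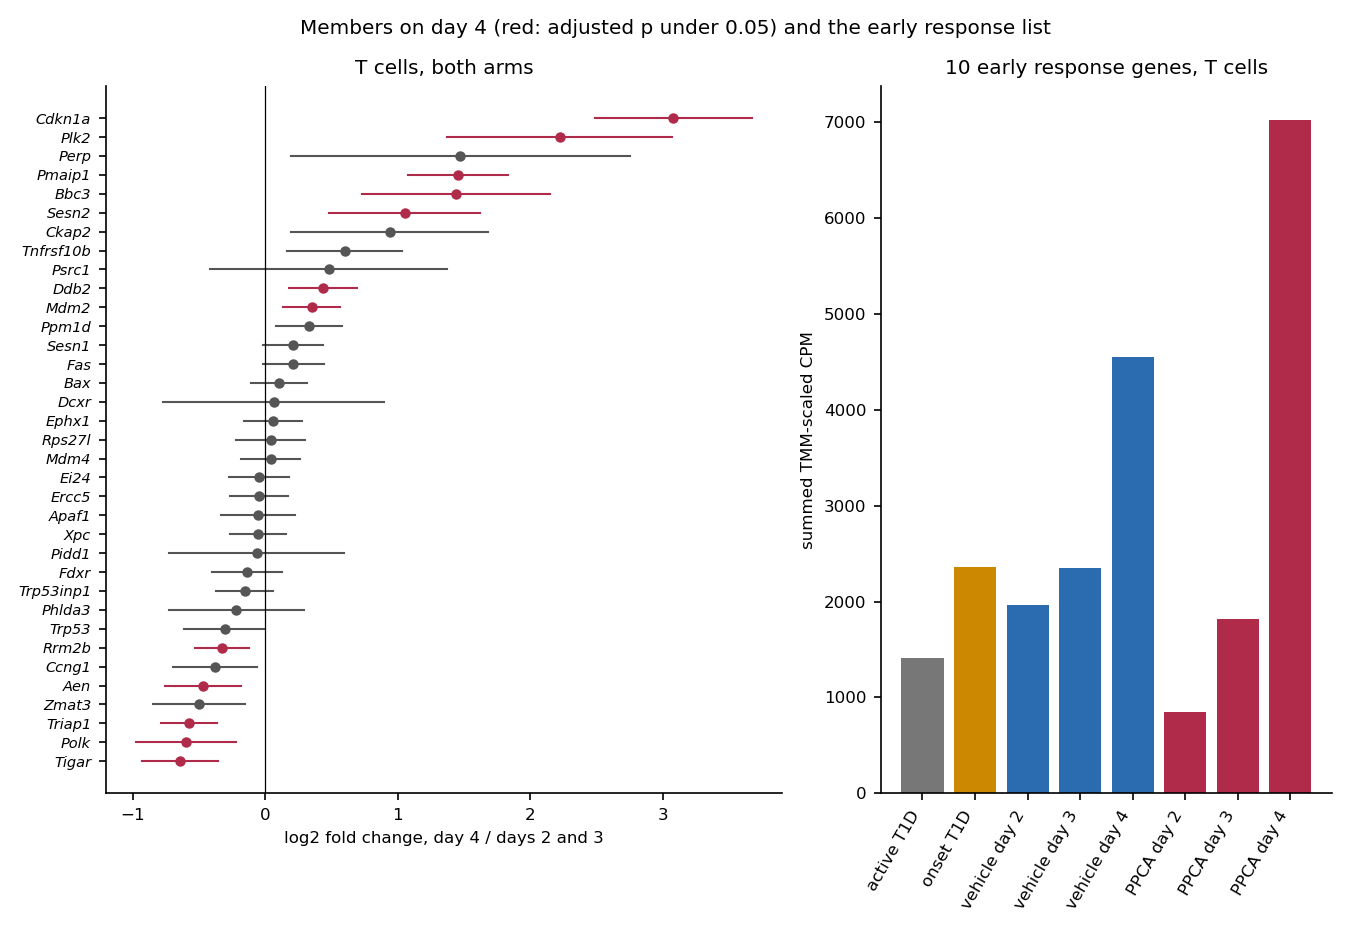
Left, log2 fold change of each tested member between day 4 and days 2 and 3 in T cells of both arms (x axis), with 95% confidence intervals and adjusted p below 0.05 in red. Right, summed TMM-scaled CPM of 10 early response genes by library (y axis). Cdkn1a at 3.08 and Plk2 at 2.22 lead the left panel, and the early response sum reaches 7029 CPM in PPCA on day 4.

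Some other pathway genes also changed on day 4. In T cells Gadd45a at 1.57, Btg2 at 1.24, Ier5 at 1.23 and Trp53inp2 at 2.27 rose on the log2 scale, while Ptp4a3 at -0.34 and Pvt1 at -0.44 fell, 6 of 19 other targets tested. Among the 18 tested regulators the checkpoint kinase gene Chek1 rose by 1.61 and the ubiquitin ligase gene Rchy1 by 0.42, and 0 fell, which is near the background of 9.82% higher and 7.53% lower.

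Many members differed between CD8-gated and CD4-gated cells of the same libraries, as did many genes. Comparing both gates within each of the 8 libraries, 22 of 35 members differed (edgeR quasi-likelihood fit, library as a block). The 11 that were higher in CD8-gated cells (31.4% of members, background 22.8%) included 8 of the 14 death and survival members and none of the cell cycle members. Perp, counted among the 8, had a value of 1.73 (SE 0.38, adjusted p = 0.00157), with 43 of its UMIs in PPCA day 3 from 4 cells. It held 1 to 10 UMIs a library in CD4-gated cells, with levels up to 0.848 CPM there and 2.93 CPM in CD8-gated cells. It entered the test through the gate where it was high, so its call is not read further. Pmaip1 differed by 0.76 (SE 0.12, adjusted p = 9.95e-05), Pidd1 by 0.52 (adjusted p = 0.0294) and Bbc3 by 0.28 (adjusted p = 0.0262). Pmaip1 was higher in the CD8-gated cells of 8 of 8 libraries, with 6.67 to 17.3 CPM against 3.02 to 15.2 CPM in CD4-gated cells. Aen, Ei24 and Bax were likewise higher in 8 of 8 libraries, by 0.26, 0.17 and 0.10 on the log2 scale. Trp53 itself differed by 0.16 (adjusted p = 7.18e-04), and Xpc, Rps27l and Triap1 by 0.16, 0.14 and 0.13.

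Higher in CD4-gated cells were 11 members (31.4%, background 22.2%), among them 3 of the 4 cell cycle members and 5 of 7 tested metabolic members. Plk2 differed by -1.27 (SE 0.11, adjusted p = 2.11e-07), with 0.882 to 16.1 CPM in CD4-gated and 0.449 to 8.32 CPM in CD8-gated cells, and was lower in CD8-gated cells of 8 of 8 libraries. Cdkn1a differed by -0.64 (SE 0.18, adjusted p = 0.0101) and was lower in the CD8-gated cells of 7 of 8 libraries. Dcxr at -0.88, Psrc1 at -0.80, Sesn1 at -0.40, Ephx1 at -0.39, Ddb2 at -0.37 and Ccng1 at -0.24 were each lower in CD8-gated cells as well. Tigar at -0.19, Fdxr at -0.17 and Ercc5 at -0.13 completed the set.

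Of the 10 early response genes 8 were also lower in CD8-gated cells, beside Plk2 and Cdkn1a, with a summed level of 589 to 5589 CPM against 962 to 8011 CPM in CD4-gated cells. Of 5 tested natural killer and innate lymphoid markers 3 were higher and 1 lower in CD8-gated cells, with a summed level of 98.5 to 151 CPM against 80.5 to 107 CPM. The 6 B cell and myeloid genes summed to 15.3 to 20.5 CPM in CD8-gated and 3.20 to 6.96 CPM in CD4-gated cells. Among the 4 tested, Cd79b, which encodes a chain of the B cell receptor, was higher in CD8-gated cells at 3.64 and Cd79a, its partner, lower at -0.95. The part of these lists was not tested. Without the library block 4 members passed, all lower in CD8-gated cells, with 1029 genes higher and 980 lower in all. Scaling by library totals, which shifts each value by -0.04, gave 7 members higher and 14 lower (2190 and 3633 genes, against 2881 and 2801 with TMM). Under it Bax, Bbc3, Triap1 and Xpc did not pass. Dcxr, Ddb2, Ephx1 and Sesn1 passed under every alternative run. Perp was too low to be tested without the block and passed under the other alternatives. Cdkn1a did not pass without the day 4 libraries or in the 4 Xist-positive libraries alone. In the 4 Xist-positive libraries 17 members passed (3925 of all genes) and in the 4 Y-positive libraries 14 (4122 of all genes). Of the regulators 9 of 18 differed (7 higher, 2 lower in CD8-gated cells), and of the other targets 9 of 18 (5 higher, 4 lower). Counted in both directions, these shares are near the background of 22.8% higher and 22.2% lower.

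**Figure D4:**
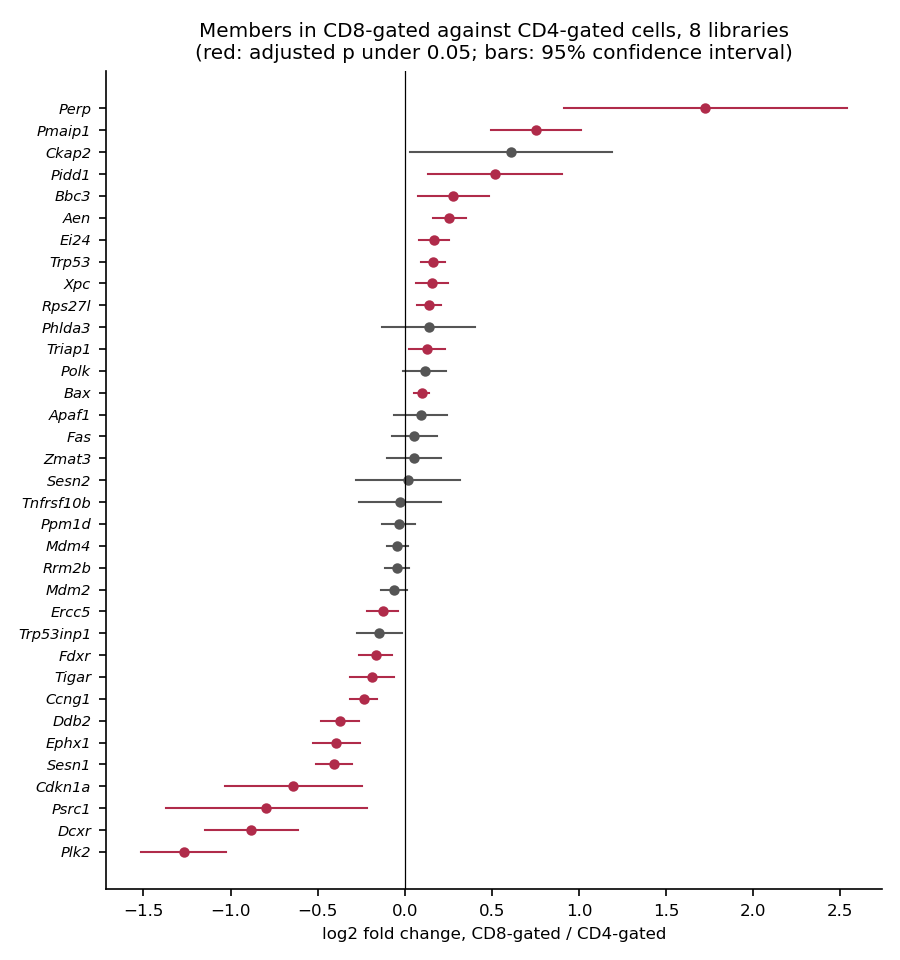
Log2 fold change of each tested member between CD8-gated and CD4-gated cells of the same 8 libraries (x axis), with 95% confidence intervals and adjusted p below 0.05 in red. Pmaip1 at 0.76 and Perp at 1.73 lie at the CD8 end, and Plk2 at -1.27 and Dcxr at -0.88 at the CD4 end. Perp had at most 10 UMIs a library in CD4-gated cells and entered the test through the CD8 gate.

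The onset library stood apart in 1 member. Phlda3 was at 10.1 CPM there (501 UMIs, 95% Poisson interval 9.22 to 11), 3.92-fold above the next library. In CD4-gated cells it was at 9.48 CPM against 1.34 to 2.82 CPM in the other 7 libraries, and in CD8-gated cells at 11.1 CPM against 1.66 to 2.63 CPM. Phlda3 was the only member at least 1.5-fold above each of the other 7 libraries in T cells (background 0.281%), CD4-gated cells (background 0.255%) and CD8-gated cells (background 0.372%). The 501 UMIs came from 461 of 9498 cells (4.85%), against 0.773 to 1.20% of cells in the other libraries. With each cell thinned to 2000 UMIs, and 50 to 422 shallower cells a library left out, the share was 1.95% in the onset library and 0.299 to 0.514% in the others. With 1 onset library there is no replicate of this difference.

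The onset library also held the highest level of the 8 libraries for 11 of 32 members (34.4%) in T cells (background 11.2%), 9 of 32 in CD4-gated cells (background 10.7%) and 12 of 34 in CD8-gated cells (background 12.4%). Apaf1, Bax, Ccng1, Mdm4, Phlda3, Rps27l, Trp53inp1 and Zmat3 were among them in all 3 gates. The summed level of the 38 members was 1135 CPM in the onset library and 978 to 1052 CPM elsewhere.

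Compared with the active library, which came from mice with higher glucose, 3 of 32 members were at least 1.5-fold higher at onset in T cells (background 3.32%). Phlda3 was 6.84-fold, Cdkn1a 3.18-fold and Plk2 2.30-fold higher, where Cdkn1a rested on 80 UMIs at onset and 24 in active diabetes. Bax, at 1.48-fold, was just below that fold. In the other direction, Pidd1 was lower at onset, at 0.665 times the active level (background 5.87%). The median log2 ratio of the members, onset over active, was 0.14, with 25 of 32 above 0, against -0.02 and 47.2% of all genes. Each state had 1 library, so these ratios carry no replicate error.

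Cells with a Phlda3 UMI also carried more of other members, a comparison chosen after its onset level was seen. In each library the T cells were divided into those with at least 1 Phlda3 UMI (65 to 461 cells) and those with none, Phlda3 itself was set aside, and the 2 sums were compared within libraries. In edgeR with the library as a block, 13 of 35 members (37.1%) were higher in cells with a Phlda3 UMI (background 3.82%) and 1, Sesn1, was lower at -0.39 (background 5.05%). The median log2 fold change was 0.37, against -0.04 over all 13132 genes tested. With each cell thinned to 2000 UMIs 3 members passed, with 57 genes higher and 290 lower, as given further on. Cells with a Phlda3 UMI were deeper in 7 of 8 libraries, with a median of 5562 against 4917 UMIs a cell at onset and 5965 against 5131 with vehicle on day 2, and shallower in PPCA on day 4 (3639 against 3852). Of 20 other p53 targets tested 4 were higher and 1 lower, at a median of -0.06 with 8 above 0, and of 18 regulators 3 were higher and 5 lower, at a median of -0.13. T cell receptor and CD3 genes were lower in cells with a Phlda3 UMI, 4 of 6 called, at a median of -0.16. Of 8 tested pancreas genes 5 were lower, and of 5 natural killer and innate lymphoid markers 2 were higher. The part of these lists was not tested.

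Death and survival members made up 7 of the 13. Bax was higher in 8 of 8 libraries, at 178 to 346 CPM (without TMM scaling) against 106 to 151 CPM, and the fitted difference was 0.80 (SE 0.06, adjusted p = 4.64e-22). Apaf1 at 0.73 and Ei24 at 0.45 were higher in 8 of 8 libraries, Zmat3 at 0.76, Bbc3 at 0.48 and Trp53inp1 at 0.37 in 7, and Aen at 0.56 in 6. Rps27l differed by 0.95 (SE 0.07, adjusted p = 4.22e-25) and Ccng1 by 0.70 (SE 0.10, adjusted p = 1.67e-09), both in 8 of 8 libraries. The cell cycle members Psrc1 at 4.30, Cdkn1a at 2.94 and Ckap2 at 1.80 rested on 47, 76 and 19 UMIs in cells with a Phlda3 UMI, and Dcxr at 1.20 on 32. Psrc1 was at 0.107 to 0.622 CPM in cells without a Phlda3 UMI and at 2.70 to 17.0 CPM in the others. It entered the test through the group where it was high, so its call, counted among the 13, is not read further. Mdm2 at -0.05 (SE 0.10, adjusted p = 0.860) and Trp53 at 0.06 (SE 0.07, adjusted p = 0.745) did not pass. Of the 13 members higher in these cells 11 had a promoter window. Aen, Bax, Ccng1, Cdkn1a, Ckap2, Ei24 and Rps27l held an exact decamer, and Apaf1, Bbc3, Dcxr and Psrc1 did not. Of all 29 members with a window 12 held an exact decamer (41.4%), against 9.55% of all genes. DESeq2 split its calls into 397 genes higher and 192 lower, against 502 and 663 with edgeR, and called 13 members higher.

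**Figure D5:**
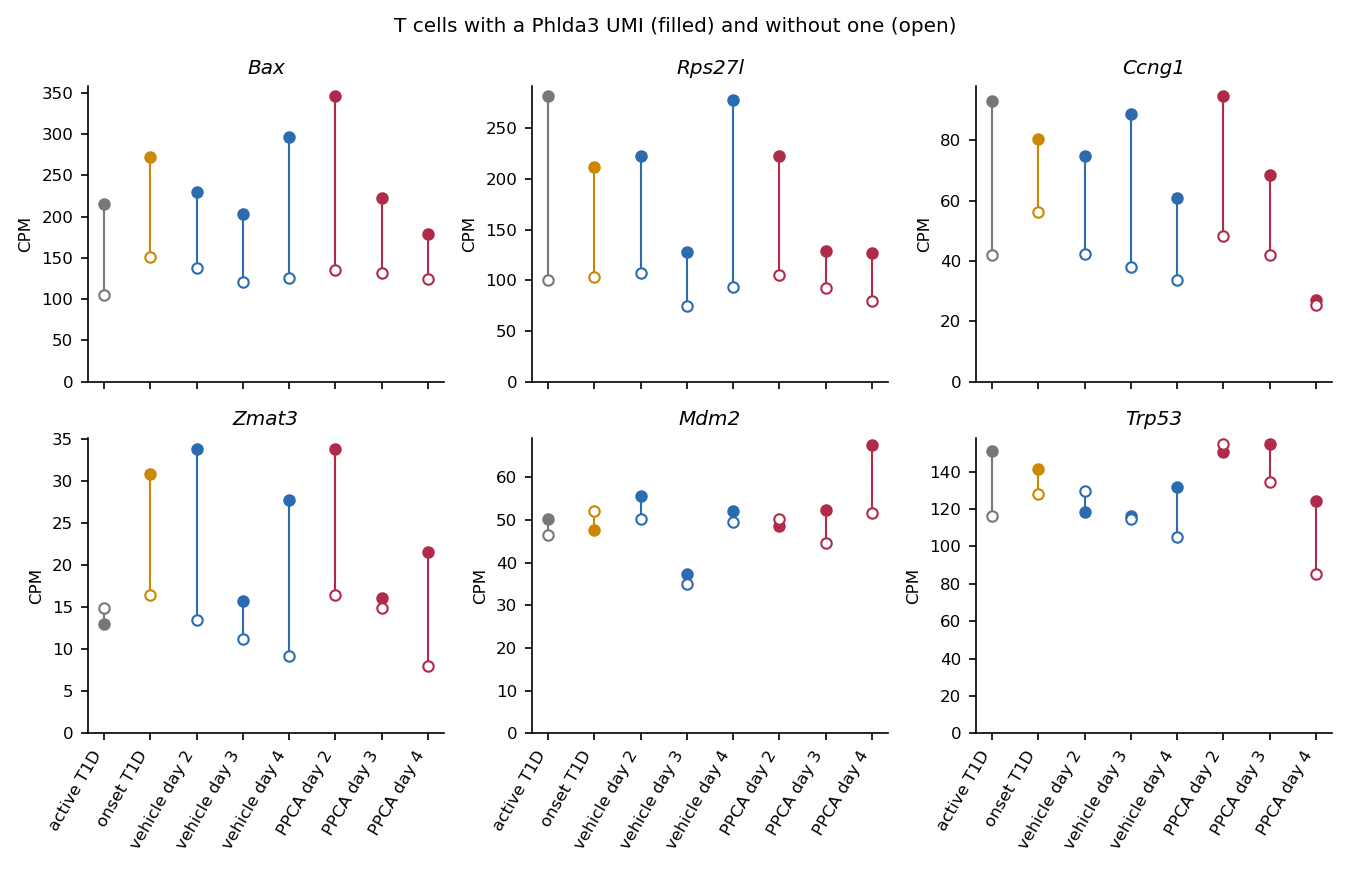
CPM without TMM scaling (y axis) of Bax, Rps27l, Ccng1, Zmat3, Mdm2 and Trp53 in T cells with a Phlda3 UMI (filled) and without one (open), for each of the 8 libraries (x axis). Filled points lie above open points in 8 of 8 libraries for Bax, Rps27l and Ccng1, in 7 for Zmat3, and in 6 for Mdm2 and Trp53.

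Without the onset library 11 members passed in the comparison of cells with and without a Phlda3 UMI, each higher, and 341 genes were higher and 570 lower in all. In CD4-gated cells alone 11 passed, with 193 genes higher and 256 lower in all. In CD8-gated cells alone 4 passed, namely Bax, Plk2, Psrc1 and Rps27l, with 113 genes higher and 115 lower in all. Among cells with no UMI of 8 cell division genes 12 passed, each higher, with 359 genes higher and 486 lower in all. With each cell thinned to 2000 UMIs 3 passed (Psrc1, Bax and Cdkn1a), with 57 genes higher and 290 lower in all. Cells were regrouped by the Phlda3 UMIs left after thinning, so the onset library had 183 cells with a Phlda3 UMI there. The value of Ei24 was -0.38, where the median over all genes was -0.21. Without the library block 7 members passed, each higher, with 36 genes higher and 4 lower in all. The share of cells with a UMI of a cell division gene was larger among those with a Phlda3 UMI in 7 of 8 libraries (8.46% against 4.78% at onset), and its part in these values was not tested. Of the 10 early response genes 0 were called higher in these cells and 5 lower.

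Cells with a Cdkn1a UMI, of which a library had 18 to 437, were compared in the same way. Of 34 members 11 (32.4%) were higher (background 5.9%) and Sesn1 at -0.58 and Trp53 at -0.29 were lower (background 6.4%). The median over all 12943 genes tested was -0.10. By library, Sesn1 was higher in cells with a Cdkn1a UMI in 3 of 8 and Trp53 in 4 of 8. Phlda3 at 2.25, Ckap2 at 1.84, Dcxr at 1.71, Polk at 0.89, Apaf1 at 0.80 and Pmaip1 at 0.74 were higher. So were Rps27l at 0.71, Ccng1 at 0.47, Trp53inp1 at 0.40, Bax at 0.38 and Psrc1 at 4.16. Bax, Rps27l, Ccng1, Apaf1, Polk, Pmaip1 and Psrc1 were higher in 8 of 8 libraries, Phlda3 and Trp53inp1 in 7, Dcxr in 6 and Ckap2 in 3. Psrc1, Phlda3, Ckap2 and Dcxr rested on 25, 46, 15 and 30 UMIs in cells with a Cdkn1a UMI. Psrc1 was at only 0.148 to 0.875 CPM in cells without a Cdkn1a UMI, so its call is not read further. In CD8-gated cells alone 1 member passed, with 194 genes higher and 186 lower in all, and the values of Pmaip1 and Polk were -0.74 and -0.47. DESeq2 called 874 genes higher and 318 lower, against 763 and 828 with edgeR, and 13 members, each higher. Mdm2 differed by 0.17 (SE 0.13, adjusted p = 0.453) and did not pass. Without the PPCA library of day 4 13 members passed (1490 genes in all), among cells with no cell division UMI 5 (1177 genes), and with cells thinned to 2000 UMIs 2 (Phlda3 and Perp, of 618 genes). Natural killer and innate lymphoid markers were higher beside them, 5 of 6 called at a median of 2.16 on the log2 scale. T cell receptor and CD3 genes were lower, 4 of 6 called at a median of -0.25 with 0 above 0, and so were 5 of 8 tested pancreas genes, at a median of -1.41. Of 20 other p53 targets 4 were higher and 1 lower (median 0.04), and of 18 regulators 1 was higher and 5 lower (median -0.18). Of the 10 early response genes 2 were called higher and 1 lower. Their sum without TMM scaling was 1774 against 968 CPM in PPCA on day 2 and 7370 against 6546 CPM in PPCA on day 4. Only in the onset library was it lower in cells with a Cdkn1a UMI, at 2357 against 2373 CPM. The share of cells with a cell division UMI was 6.87 to 26.7% among those with a Cdkn1a UMI and 3.64 to 5.20% among those without. The part of these was not tested.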

How the data were processed

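The deposited matrices hold raw UMI counts per gene and cell barcode, made with Cell Ranger 6.1.2 per the submitters' processing notes and Cell Ranger 6.0.0 per the file headers. Seurat is also named in the submitters' processing notes, and the genome build of the counts is not given in the sources used here. A table deposited by the authors gives p-values and log2 fold changes for markers of their own clusters, per the file headers. It was used only in the closing section.

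The members and gene lists were chosen with earlier results of these data known. Barcodes with at least 500 genes and under 10% mitochondrial UMIs were kept, and the top-scoring 0.8% per 1000 barcodes by Scrublet (scanpy 1.11.5) were removed as doublets, since its own threshold marked almost none. T cells had at least 2 UMIs over Cd3d, Cd3e, Cd3g, Trac, Trbc1 and Trbc2 and at most 1 over 6 B cell and myeloid genes. Counts were summed per library and gate. edgeR 4.0.16 in R 4.3.3 (TMM, filterByExpr, quasi-likelihood F-test) was fitted over all genes, with Benjamini-Hochberg adjustment and a threshold of 0.05. It was tested on simulated data. The day number marks the harvest of both arms, and libraries of 1 day deviated together, with correlations of 0.33 to 0.55 in all gates, so the day was the block. Values in every library were given for members passing any test, for those with 1 direction under PPCA in all gates, and for Cdkn1a, Mdm2, Ccng1, Phlda3, Bax and Trp53. The lists were natural killer and innate lymphoid, pancreas, early response, sex-linked, regulators and other p53 targets, fixed with the members, and cell division genes (Mki67, Top2a, Birc5, Cdk1, Ccnb1, Ccnb2, Cenpf and Cdca8), chosen after the data were seen. Exons of Ddb2, Ei24, Gls2, Rrm2b and Tigar overlap a counted gene on the opposite strand, and whether strand was used in counting is not given in the sources used here. Alternatives were DESeq2 1.42.0, limma-voom (limma 3.58.1), other scaling, filters and gates, and libraries left out.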

Additional observations from a re-analysis of the deposited data

How the results depend on the processing

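Counts here are of members or of all genes with an adjusted p below 0.05. Between PPCA and vehicle, the count of members went from 0 to 1 (Cdkn1a) without a low-count filter in T cells and in CD4-gated cells, and stayed at 0 under the other alternatives run. The count of all genes, 0 as reported, was 62 in T cells, 34 in CD4-gated and 40 in CD8-gated cells with DESeq2, 104, 187 and 111 without a filter, and 68, 163 and 144 with a term for Xist. Leaving out 1 day at a time gave 0 to 82, 0 to 27 and 0 to 151 genes. In CD8-gated cells library totals, limma-voom and a gate of at least 2 UMIs each gave 2 genes. For day 4 against days 2 and 3, leaving out day 2 or day 3 gave 2 to 4 members of 12 in T cells (261 to 1158 genes of 2362), 3 to 5 of 7 in CD4-gated cells (521 to 906 of 1662) and 2 to 4 of 7 in CD8-gated cells (494 to 1430 of 1879). Without a filter 11 members passed in CD4-gated cells (2559 genes) and 11 in CD8-gated cells. A term for Xist gave 14 (2959 genes) and 17 (3319 genes). In CD8-gated cells library totals gave 13 members and DESeq2 3. Between the gates, 4 members (2009 genes of 5682) passed without the replicate block and 14 in the Y-positive libraries. For the difference of the treatment effect between gates, 3 genes became 1 with DESeq2, 70 without a filter, 0 without the replicate block, 20 with at least 2 gate UMIs, 10 to 52 with 1 day left out and 91 with a term for Xist, with 0 members throughout. Among cells with and without a Phlda3 UMI, 14 members (1165 genes) became 4 (228) in CD8-gated cells, 7 (40) without the block and 3 (347) when thinned, and CD4-gated cells gave 449 and DESeq2 589 genes. With Cdkn1a, 13 members (1591 genes) became 1 (380) in CD8-gated cells, 5 without cells that had a division UMI, 8 (844) without the block and 2 (618) when thinned, and CD4-gated cells gave 1034 genes. The cause was not tested. Leave-outs and single gates hold fewer libraries or cells, and thinning fewer counts. Day 4 could not be fitted without its own pair or with the day as a block, so those alternatives were not run. Scaling by library totals moved the median of the members under PPCA from 0.06 to 0.14 in T cells and CD4-gated cells and to 0.15 in CD8-gated cells, and the median of all genes with it, to 0.08, 0.08 and 0.09. The alternatives for cells with a Phlda3 or Cdkn1a UMI, the Xist-positive and Y-positive subsets, and the day 4 values without the PPCA library were chosen after seeing the data. Few UMIs limit Cdkn1a, Perp, Psrc1, Pidd1 and Dcxr, and Ak1, Gdf15 and Gls2 were not tested in T cells.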

Other observations

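In the authors' deposited table of cluster markers, 7 of 2100 rows named a member, and these rows named 4 members. Fas, the death receptor, was listed there for the clusters CD4 Treg (log2 fold change 0.36) and CD8 TRM TEM (0.35). Trp53inp1 was listed in the authors' deposited table for CD4 Treg (0.66) and CD4 Th17 (0.30). Ephx1 was listed in the authors' deposited table for CD4 Treg (0.60) and CD4 Th0 (0.34), and Trp53 for CD4 Th0 (0.26). Cdkn1a, Mdm2, Bbc3, Plk2 and Phlda3 had no row in the authors' deposited table.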
